A study of Mus musculus with 12 samples.

Results

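Vascular endothelial growth factors (VEGF) are secreted ligands that bind tyrosine kinase receptors on endothelial cells and drive endothelial growth, survival and permeability. Vegfa acts mainly through Kdr, the chief signalling receptor of blood vessels, Vegfb and Pgf bind Flt1, which holds ligand with weak kinase activity, and Vegfc and Vegfd are ligands of Flt4, the receptor of lymphatic endothelium. Neuropilins are co-receptors that these ligands share with class 3 semaphorins, Nrp1 mainly in arterial and Nrp2 mainly in venous and lymphatic endothelium.

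The 10 genes Vegfa, Vegfb, Vegfc, Vegfd, Pgf, Flt1, Kdr, Flt4, Nrp1 and Nrp2 were taken by symbol as the ligands, receptors and neuropilins of the family, out of 55414 genes in the count table. RNA-seq was performed on the inferior vena cava (IVC) of 12 wild-type C57BL/6 mice, 10 weeks old by the labels and sampled on postoperative day 7. In 6 mice an arteriovenous fistula (AVF) had been made between the infrarenal aorta and the IVC by needle puncture, and 6 mice had a sham operation, with 3 female and 3 male mice and 1 library per mouse in each group. Anesthesia, analgesia, laparotomy and clamping of the vessels were common to both groups, which differed by the puncture, and the tissue was a whole vein segment flushed with saline, in AVF from above the fistula to below the left renal vein, with no sorting of cells. The libraries held 15177881 to 22717423 counts, so that 3 counts, the least taken as detected, were 0.127 to 0.324 normalized CPM (counts scaled to a common library size). Ribosomal RNA genes took 46% of the counts in AVF female 1 and 2.39% to 12.6% in the other libraries. AVF male 2 and AVF female 2 are the libraries that the study set apart from the other AVF, and 11 of 12 hepatocyte markers were higher in AVF with them and 0 without them. Markers of the vein were present in every library. The summed level of 19 endothelial markers was 3330 to 4661 normalized CPM in AVF and 3008 to 4820 in sham. Of 8 kidney tubule markers, Umod, Slc34a1 and Kap were at 0 in all 12 libraries. Only Lrp2 had enough counts to be tested, at 0.136 to 2.98 normalized CPM in AVF (median 1.64) and 0 to 2.2 in sham (median 0). Its difference between the groups had an adjusted p of 0.318 (edgeR's quasi-likelihood test).

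Of the 5 ligands 2 rose and 1 fell, of the 3 receptors 1 rose, and of the 2 neuropilins none passed the test. Pgf was 2.26-fold and Vegfd 2.06-fold higher in AVF than in sham, and Flt4 1.37-fold higher. Vegfb was lower, at 0.631 of the sham level. Vegfa, Vegfc, Flt1, Kdr, Nrp1 and Nrp2 did not pass the test. Thus 3 of the 10 genes rose and 1 fell at an adjusted p under 0.05 (edgeR's quasi-likelihood test, Benjamini-Hochberg adjustment over all genes tested), where 8.63% of the 15912 genes tested rose and 5.13% fell. Pgf and Vegfd also reached the 2-fold limit for a differentially expressed gene (DEG), against 3.37% of all genes as DEG that rose. All 10 genes passed the filter on low counts, and their median log2 fold change was 0.14, with -0.01 over all genes tested. In a bulk tissue, fewer cells of a type and less RNA per cell cannot be told apart.

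**Figure D1:**
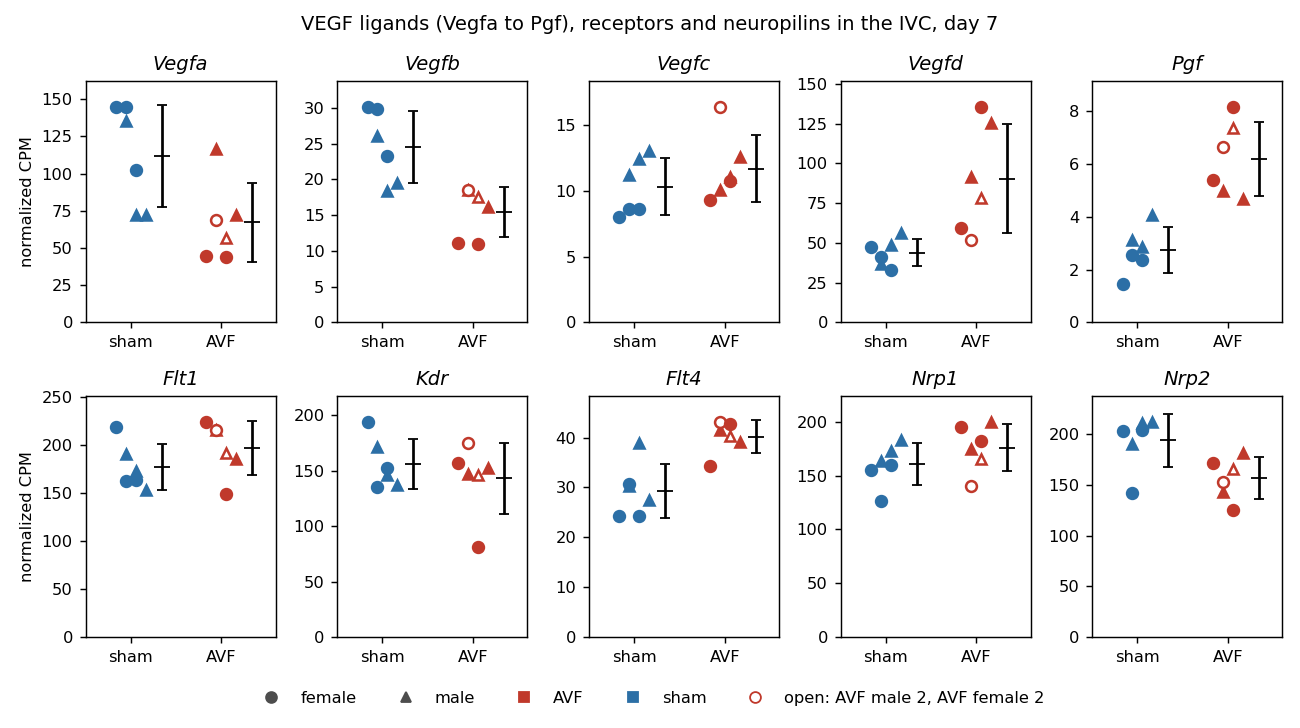
Normalized CPM of the 10 genes in each library, sham at the left and AVF at the right of each panel, with circles for females, triangles for males, open symbols for AVF male 2 and AVF female 2, and the mean with its SD (n = 6) beside the points. Every AVF library lay above every sham library for Pgf (4.67 to 8.17 against 1.46 to 4.07), while the groups overlapped for the other 9 genes.

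The 250 bases before the start of the Ensembl canonical transcript are shown for the 4 genes that passed the test and for Vegfa, the ligand with the highest level in sham, so that the genes that moved can be read side by side. They were read from GRCm39, 5′ to 3′ on the strand of the gene. Capitals mark ACGTG or GCGTG, the core bound by hypoxia-inducible factors (HIF), and GGGCGG, the box bound by Sp1 and related factors, on either strand.
Pgf, chr12:85224565-85224814, minus strand: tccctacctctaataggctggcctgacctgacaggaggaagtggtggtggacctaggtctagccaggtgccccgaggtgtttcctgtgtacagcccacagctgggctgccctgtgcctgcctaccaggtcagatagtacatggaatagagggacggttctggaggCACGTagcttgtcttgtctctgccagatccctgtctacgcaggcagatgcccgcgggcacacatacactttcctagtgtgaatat
Vegfd, chrX:163155990-163156239, plus strand: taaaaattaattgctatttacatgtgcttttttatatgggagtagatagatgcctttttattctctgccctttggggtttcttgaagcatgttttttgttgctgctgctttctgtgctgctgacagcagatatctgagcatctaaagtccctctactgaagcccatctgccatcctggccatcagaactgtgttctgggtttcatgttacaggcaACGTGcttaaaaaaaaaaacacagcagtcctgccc
Flt4, chr11:49499840-49500089, plus strand: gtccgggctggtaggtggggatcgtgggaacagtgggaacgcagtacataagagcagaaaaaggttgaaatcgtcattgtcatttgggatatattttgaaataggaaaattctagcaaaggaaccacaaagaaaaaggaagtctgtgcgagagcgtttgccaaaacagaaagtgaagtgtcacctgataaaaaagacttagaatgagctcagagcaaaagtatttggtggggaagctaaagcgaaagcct
Vegfb, chr19:6965116-6965365, minus strand: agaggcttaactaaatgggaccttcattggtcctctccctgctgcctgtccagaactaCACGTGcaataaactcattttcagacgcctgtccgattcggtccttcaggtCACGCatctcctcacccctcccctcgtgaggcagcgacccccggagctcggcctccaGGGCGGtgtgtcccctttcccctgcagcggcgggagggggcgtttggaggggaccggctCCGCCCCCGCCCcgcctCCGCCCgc
Vegfa, chr17:46343310-46343559, minus strand: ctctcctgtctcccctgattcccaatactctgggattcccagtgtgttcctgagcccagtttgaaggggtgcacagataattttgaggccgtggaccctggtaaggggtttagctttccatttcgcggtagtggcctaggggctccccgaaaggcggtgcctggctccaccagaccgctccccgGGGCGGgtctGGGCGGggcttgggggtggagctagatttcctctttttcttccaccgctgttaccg
The letters ACGTG were found in the windows of Pgf, Vegfd, Vegfb and Nrp1, that is in 4 of the 10 genes, and in 20.1% of the windows of 14388 protein-coding genes tested. In Vegfb they lay in CACGTG, which reads the same on both strands, so that its 2 matches overlap. GCGTG was found in 6 of the 10 genes (Vegfb, Vegfc, Flt1, Kdr, Nrp1 and Nrp2) and in 39% of the windows. GGGCGG was also found in 6 (Vegfa, Vegfb, Flt1, Kdr, Nrp1 and Nrp2), and in 47% of the windows. The windows of Pgf, Vegfd and Flt4, the 3 genes that rose, held no GGGCGG, nor did that of Vegfc. The share of G and C was 41.6% in Vegfd, 42.8% in Flt4, 56.8% in Pgf, 59.6% in Vegfa and 65.2% in Vegfb, beside a median of 56.4%. A match is a description of these letters and was not tested against expression.

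Among the ligands, Pgf (ENSMUSG00000004791, chr12:85213409-85224564), placental growth factor, changed most. Its level was 4.67, 6.02 and 8.17 normalized CPM (lowest, median and highest) in AVF and 1.46, 2.7 and 4.07 in sham. The groups did not overlap, which was so for 6.06% of all genes tested, and the log2 fold change was 1.18 (SE 0.23, adjusted p = 0.00714). Pgf was the least abundant of the 10 genes, with 28 to 174 counts per library, and its log2 fold change stayed between 1.05 and 1.32 when each library was left out in turn.

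Vegfd (ENSMUSG00000031380, chrX:163156240-163185646), a ligand of Flt4 that mesenchymal cells express in many tissues, had 51.8, 84.7 and 135 normalized CPM in AVF and 33.0, 44.0 and 56.2 in sham. In 5 of 6 AVF the level exceeded every sham library, and AVF female 2 was the one that did not. The log2 fold change was 1.05 (SE 0.23, adjusted p = 0.0136). It was 1.24 (adjusted p = 0.00691) without AVF male 2 and AVF female 2, in a fit that called 7.92% of genes. The summed level of 10 fibroblast markers moved with the groups, from 8961 to 17612 normalized CPM in sham to 17744 to 29523 in AVF, and 5 of the 10 rose and 1 fell. Among those that rose were Lum, Col1a1 and Col1a2, genes of the collagen matrix, and the one that fell was Clec3b. Most of the summed level came from Col1a1 and Col1a2, with means of 8287 and 10093 normalized CPM in AVF and 3284 and 4435 in sham. The 4 not called were Pdgfra (log2 fold change 0.04), Dcn (0.12), Fbln1 (-0.07) and Scara5 (-0.29). The part of the fibroblast markers in the change of Vegfd was not tested.

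Vegfb (ENSMUSG00000024962, chr19:6958447-6965127), a Flt1 ligand abundant in fat, heart and muscle, had 11.0, 16.8 and 18.6 normalized CPM in AVF and 18.3, 24.7 and 30.2 in sham. In 4 of 6 AVF it was below every sham library, with a log2 fold change of -0.66 (SE 0.17, adjusted p = 0.0273). The adjusted p rose to between 0.0507 and 0.069 without AVF male 3, AVF female 3, sham male 1, sham female 1, sham female 2 or sham female 3 and the log2 fold changes stayed negative, from -0.74 to -0.57 over all 12 libraries left out.

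Vegfa (ENSMUSG00000023951, chr17:46327919-46343309), the main angiogenic ligand and a target of HIF, had 44.1, 62.9 and 116 normalized CPM in AVF and 72.0, 119 and 145 in sham. Here too 4 of 6 AVF were below every sham library, and AVF male 1, at 116, was far above the other AVF. The log2 fold change of -0.74 (95% interval -1.30 to -0.17) had an adjusted p of 0.078 and was not called. It passed with the exact test of edgeR (adjusted p = 0.0285, with 12.6% of genes called), which the study used between the operations. The study reported VEGF-A as significantly lower in AVF. Vegfa also passed with DESeq2 (adjusted p = 0.0289, with 21.4% of genes called) and without AVF male 1 (-0.96, adjusted p = 0.0222). Vegfc (ENSMUSG00000031520, chr8:54530257-54640131), the main lymphangiogenic ligand, had 9.28, 10.9 and 16.4 normalized CPM in AVF and 8.00, 9.93 and 13 in sham. In 1 AVF library, AVF female 2, it lay above every sham library, the other 5 lay within the sham range, and its log2 fold change was 0.18 (95% interval -0.19 to 0.54, adjusted p = 0.502).

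Levels of different genes were compared per kilobase of exon, over all exons of a gene. This length counts every annotated exon, used in the vein or not, so the order of genes and their shares depend on the annotation. In sham, Vegfa was the most abundant ligand at 26 ± 8.00 normalized CPM per kilobase (SD, n = 6), above Vegfd at 15.4 ± 3.00, Vegfb at 7.54 ± 1.55, Vegfc at 3.61 ± 0.764 and Pgf at 0.936 ± 0.295. In AVF, Vegfd came first at 31.7 ± 12 and Vegfa followed at 15.6 ± 6.22, with Vegfd above Vegfa in 6 of 6 libraries. Then came Vegfb at 4.75 ± 1.08, Vegfc at 4.09 ± 0.893 and Pgf at 2.12 ± 0.480. As a share of the 5 ligands together, Vegfa took 34.7% to 55.1% in sham and 15.2% to 38.6% in AVF, and Vegfd 22.4% to 40.6% in sham and 37.9% to 70.2% in AVF. Among all 10 genes, neighbours in the order could often not be told apart. In sham Kdr exceeded Nrp2 in 3 of 6 libraries and Vegfc exceeded Flt4 in 3 of 6, and in AVF Vegfa exceeded Kdr in 3 of 6 and Flt4 exceeded Vegfb in 2 of 6.

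Of the 3 receptors, Flt4 alone passed the test. Flt4 (ENSMUSG00000020357, chr11:49500090-49543582) had 34.2, 40.9 and 43.2 normalized CPM in AVF and 24.2, 28.9 and 38.8 in sham. In 5 of 6 AVF it lay above every sham library, the exception being AVF female 1, the library with the most ribosomal RNA. The log2 fold change was 0.45 (SE 0.12, adjusted p = 0.0234), and the adjusted p was 0.0584 with the exact test of edgeR and 0.0753 without AVF male 2 and AVF female 2.

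Flt1 (ENSMUSG00000029648, chr5:147498414-147662826) had 149, 203 and 224 normalized CPM in AVF and 153, 168 and 218 in sham, so the groups overlapped over nearly their whole range. Its log2 fold change was 0.15 (95% interval -0.09 to 0.40, adjusted p = 0.378). Kdr (ENSMUSG00000062960, chr5:76093487-76139884) had 81.5, 150 and 175 normalized CPM in AVF and 135, 149 and 194 in sham. The medians were nearly the same and AVF female 3 alone fell below the sham range. Kdr had a log2 fold change of -0.12 (95% interval -0.47 to 0.22, adjusted p = 0.634), and -0.01 without AVF female 3.

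The neuropilins did not pass the test. Nrp1 (ENSMUSG00000025810, chr8:129085085-129231082) had 140, 178 and 200 normalized CPM in AVF and 126, 162 and 183 in sham, with overlapping groups and a log2 fold change of 0.14 (adjusted p = 0.407). Nrp2 (ENSMUSG00000025969, chr1:62742444-62857854) had 125, 159 and 181 in AVF and 142, 203 and 212 in sham. Sham female 2, at 142, lay far below the other sham libraries, of which the next was at 190. Nrp2 had a log2 fold change of -0.31 (95% interval -0.55 to -0.06, adjusted p = 0.0865), and -0.38 (adjusted p = 0.0265) without sham female 2. Of the 12 fits that left out 1 library, this was the only fit that called Nrp2, and its share of all genes called was not computed.

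A ratio of 2 genes within a library does not depend on how libraries are scaled. Of 10 such ratios, 6 differed between AVF and sham at an adjusted p under 0.05 (two-sided exact permutation test of 6 against 6 libraries, adjusted over the 10 ratios). The ratios share genes such as Kdr, Vegfa and Flt4 and are not independent. The share of other gene pairs that differ was not computed, so the count is not a result about the family. The log2 ratio of Flt1 to Kdr was 0.28 to 0.87 in AVF and 0.10 to 0.26 in sham. It did not overlap between the groups, and the difference of 0.30 had an adjusted p of 0.0108 in the exact permutation test. The log2 ratio of Nrp1 to Nrp2 was -0.12 to 0.54 in AVF and -0.38 to -0.17 in sham, also without overlap, with a difference of 0.44 (exact permutation test, adjusted p = 0.0108). For both the unadjusted p was 0.00216, the smallest that this test can give. Thus the receptor and the co-receptor pairs differed in balance although none of Flt1, Kdr, Nrp1 and Nrp2 passed the test alone.

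Pgf to Vegfa, the balance of a ligand of Flt1 alone and of a ligand of Flt1 and Kdr, was higher in AVF by 1.95 (exact permutation test, adjusted p = 0.0144). Flt4 to Kdr was higher by 0.62 (exact permutation test, adjusted p = 0.0346) and Vegfa to Vegfc lower, with a difference of -0.93 (exact permutation test, adjusted p = 0.0361). Flt4 to Kdr lost its call in 7 of the 12 tests that left out 1 library (AVF male 2, AVF female 2, AVF female 3, sham male 1, sham male 3, sham female 1 or sham female 3, with adjusted exact permutation p up to 0.0736). Vegfa to Vegfc lost it in 9, that is in all but those without AVF male 1, sham male 2 or sham male 3, with adjusted exact permutation p up to 0.108. Flt4 to the mean of 19 endothelial markers was higher by 0.47 (exact permutation test, adjusted p = 0.0325, but 0.0519 without AVF male 2 or AVF female 2 and 0.0649 without AVF female 3 or sham female 1). Set against 15 genes of VEGF-C processing and lymphatic endothelium, Flt4 differed by 0.12 (exact permutation test, adjusted p = 0.197), a call that appeared without sham female 2 (0.17, adjusted p = 0.0361). Vegfb to Vegfa differed by 0.08, Flt1 to endothelial markers by 0.16 and Kdr to endothelial markers by -0.15, with adjusted p of 0.617, 0.102 and 0.373 in the exact permutation test. Without AVF male 2 and AVF female 2, 3 of the 6 remained, namely Flt1 to Kdr (0.37), Nrp1 to Nrp2 (0.56) and Pgf to Vegfa (1.84).

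**Figure D2:**
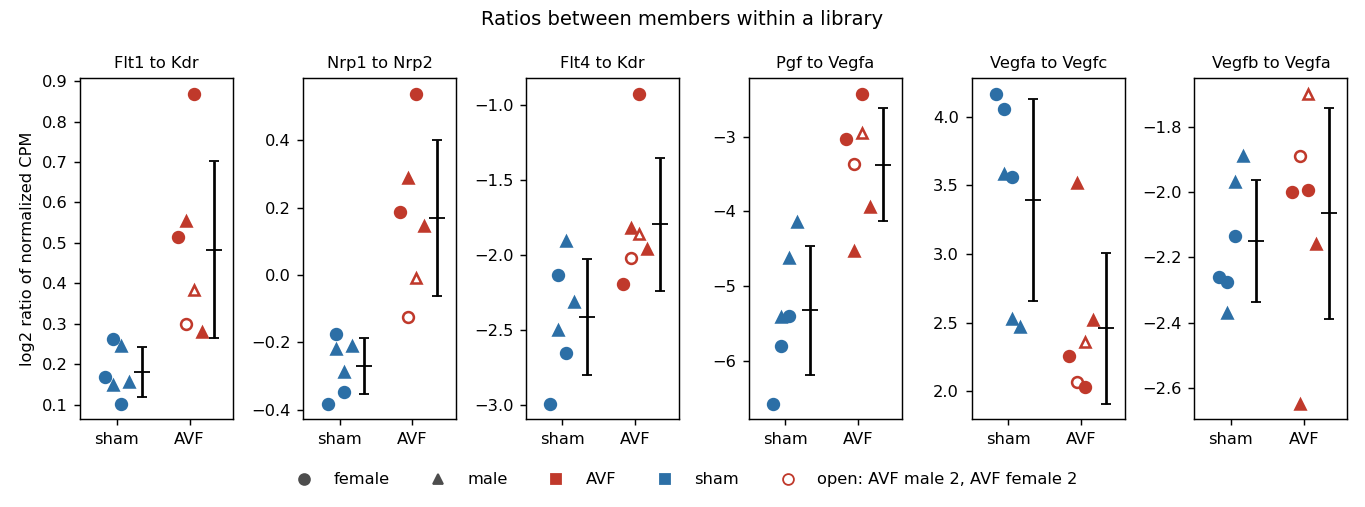
Log2 ratios of normalized CPM between pairs of the genes within each library, by operation, with the symbols of the plot of levels and the mean with its SD (n = 6). Flt1 to Kdr and Nrp1 to Nrp2 had no overlap between AVF and sham, while Vegfb to Vegfa overlapped throughout, with means of -2.06 in AVF and -2.15 in sham.

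The level of brown fat markers moved with the operation. All 12 markers were lower in AVF and 7 passed the test, among them Cox7a1, Kcnk3 and Fabp3. The 5 not called were Ucp1 (log2 fold change -2.83), Elovl3 (-1.43), Dio2 (-1.01), Slc27a2 (-0.29) and S100b (-0.25). No marker was at 0 in every library, and the summed level of the 12 was 118 to 520 normalized CPM in AVF and 251 to 2195 in sham. Of 12 white fat markers 0 were called, with 6 higher and 6 lower by sign. Within sham, Vegfa followed the mean log2 level of the brown fat markers (Pearson's r = 0.96, exact permutation p = 0.00278, Spearman's rho = 0.94, exact permutation p = 0.0167, n = 6). Vegfb did so as well (r = 0.97, exact permutation p = 0.00139, rho = 1, exact permutation p = 0.00278), where both p are the smallest that the test can give. Without the 2 libraries farthest from the median marker level, r was 0.84 for Vegfa and 0.85 for Vegfb. Over the 20 relations computed, 10 genes in 2 groups, these were the ones with an adjusted p under 0.05 for r (0.0278 for both), and their adjusted p for rho were 0.167 and 0.0556. Within AVF, r was 0.45 for Vegfa, 0.62 for Vegfb and -0.88 for Vegfd (exact permutation p = 0.372, 0.156 and 0.0236, adjusted 0.465, 0.321 and 0.0944). Flt1 (r = 0.89, exact permutation p = 0.0167) and Kdr (r = 0.83, exact permutation p = 0.0208) had the same adjusted p within AVF as Vegfd. Spearman's rho was -0.83 for Vegfd, 0.77 for Flt1 and 0.71 for Kdr (adjusted exact permutation p = 0.233, 0.257 and 0.302). Without the 2 libraries farthest from the median marker level, r was -0.50 for Vegfd, 0.32 for Flt1 and 0.81 for Kdr. Within sham, Vegfd had an r of -0.46 (exact permutation p = 0.361, adjusted 0.465), which became 0.96 without the 2 farthest libraries.

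With the mean of the brown fat markers as a covariate, none of the 10 genes passed the test of AVF against sham, and 6.76% of all genes did. The log2 fold change became 0.88 for Pgf (adjusted p = 0.0776), 0.51 for Vegfd (adjusted p = 0.236) and 0.32 for Flt4 (adjusted p = 0.181). Those of the lower ligands shrank to -0.23 for Vegfb (adjusted p = 0.42) and -0.10 for Vegfa (adjusted p = 0.867), and that of Flt1 grew to 0.39 (adjusted p = 0.0567). The marker level differs between the operations, so this fit cannot tell the 2 apart. With the mean of the endothelial markers as a covariate, the same 4 genes passed the test, in the same directions, and 12.3% of all genes did.

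**Figure D3:**
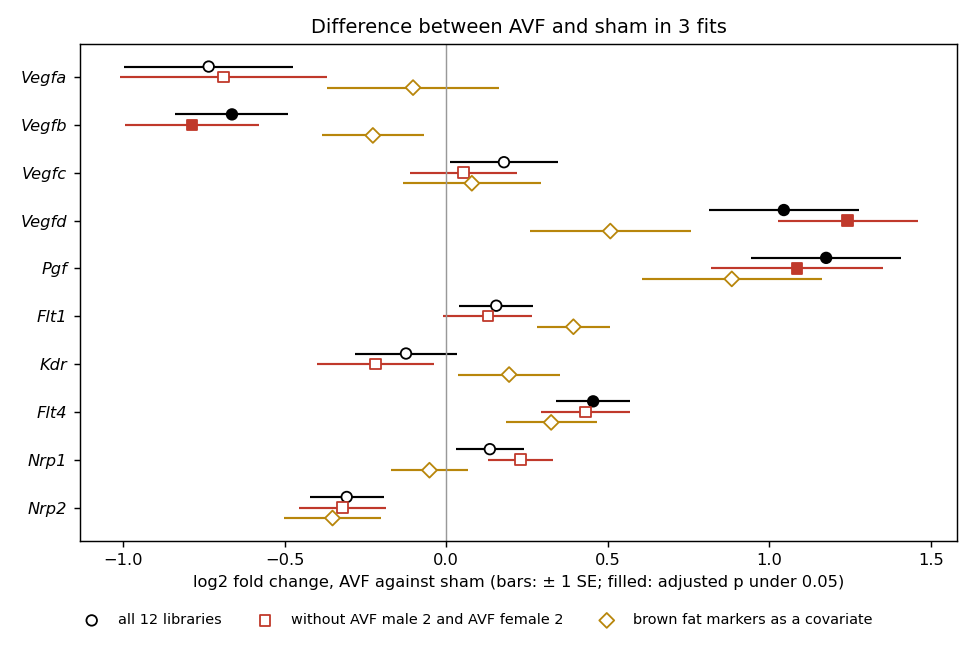
Log2 fold change of AVF against sham with its SE for the 10 genes, with all 12 libraries, without AVF male 2 and AVF female 2, and with the brown fat markers as a covariate, where filled symbols have an adjusted p under 0.05. Vegfd moved from 1.05 to 1.24 without the 2 libraries and to 0.51 with the covariate, and Vegfa from -0.74 to -0.69 and -0.10.

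**Figure D4:**
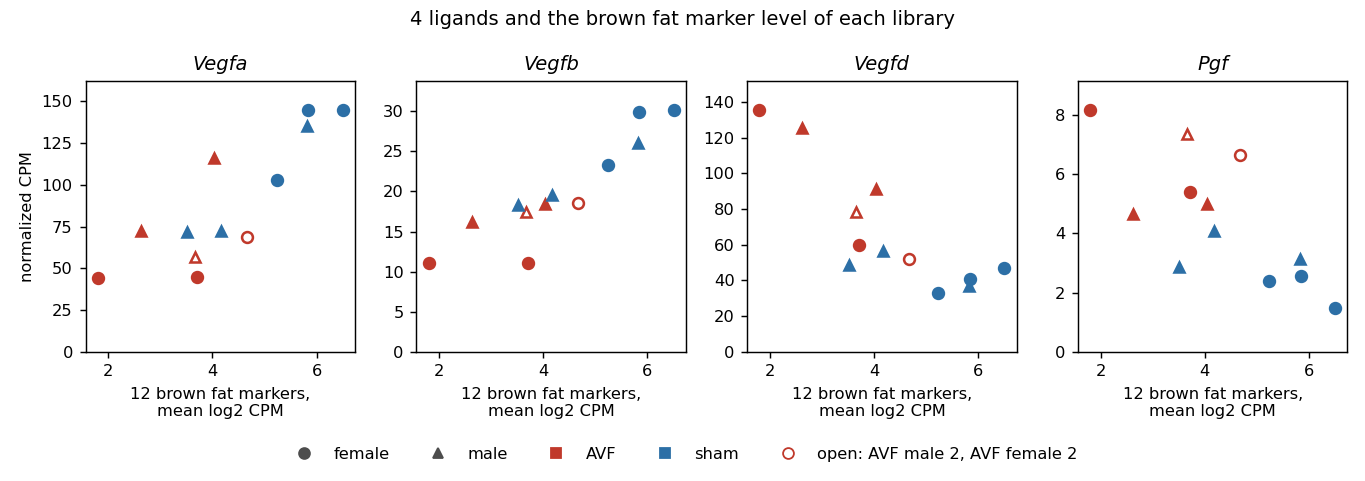
Normalized CPM of 4 ligands against the mean log2 CPM of 12 brown fat markers in each library, with colours for the operation and symbols for the sex. Vegfa and Vegfb rise with the marker level across the sham libraries (r = 0.96 and 0.97), whereas the highest Vegfd levels, 125 and 135, both in AVF, lie at the lowest marker levels. Across the sham libraries r was -0.46 for Vegfd.

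Of 12 macrophage markers 9 rose and none fell, with a summed level of 1298 to 2158 normalized CPM in AVF and 716 to 1129 in sham. These 75% stood beside 8.63% of all genes that rose. Of 8 pericyte markers, 2 rose, Rgs5 (log2 fold change 1.39) and Pdgfrb (0.56). In the other lists few markers passed. All 14 neuron markers were lower by sign, and 1, Elavl4, passed the test (7.14%, beside 5.13% of all genes that fell). Of 10 smooth muscle markers 1 rose. Of 8 striated muscle markers tested none passed, and their summed level was 12.3 to 76.6 in AVF and 21.3 to 816 in sham. It was 606 in sham female 1 and 816 in sham female 3, and at most 30.8 in the other sham libraries. The part of muscle in the brown fat marker level was not tested. The part of these cell types in the results for the 10 genes was not tested. Of the 19 endothelial markers, Eng rose (0.47) and Mmrn2 fell (-0.56), and their median log2 fold change was -0.0023.

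The sexes were compared within each operation, a comparison that the study made in AVF. None of the 10 genes was called between female and male AVF, where 7 of 22123 genes were (0.0316%), nor between female and male sham, where 18 of 21992 were (0.0818%). The lowest unadjusted p of the 10 genes over both operations was that of Vegfc in sham, which was not called. Its level was 8.42 ± 0.371 normalized CPM in females and 12.2 ± 0.934 in males (SD, n = 3 each). Its log2 fold change was -0.54 (edgeR, adjusted p = 0.402). The interaction of operation and sex was called for 0 of 22163 genes (0%) with edgeR's quasi-likelihood test, with 1069 genes at an unadjusted p under 0.05, among them Vegfa and Vegfb. Vegfa was 52.5 ± 14.2 normalized CPM in female AVF and 131 ± 24.2 in female sham, and 81.8 ± 30.8 in male AVF and 93.1 ± 36.3 in male sham. The interaction was -1.16 for Vegfa and -0.77 for Vegfb, both with an adjusted p of 0.96 (edgeR). A difference between the sexes in the response was therefore not shown for any of the 10 genes, at 3 mice per sex and operation.

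The genes around the family were described by 5 lists with 111 genes tested, of which 15 rose (13.5%) and 9 fell (8.11%), beside 8.63% and 5.13% of all genes tested. Of 40 genes of VEGF receptor signalling, which carry the signal inside the cell, Sphk1 rose (1.37, adjusted p = 0.0472), a kinase that makes sphingosine 1-phosphate, and Ppp3ca fell (-0.30, adjusted p = 0.0416), the catalytic subunit of calcineurin. Sphk1 was at 2.54 ± 1.75 normalized CPM in AVF and 0.988 ± 0.444 in sham. The other 38 did not pass, so that 2.5% rose and 2.5% fell, and the median log2 fold change of the list was 0.09. Neither call held without AVF male 2 and AVF female 2. That fit called 7.92% of all genes, beside 13.8% with all 12 libraries, here and for the lists below.

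Of 20 genes that VEGF is known to induce in endothelial cells, 4 rose (20%) and 1 fell (5%), with a median of 0.07. Esm1, a proteoglycan of endothelial tip cells, changed most, from 1.62 ± 0.840 normalized CPM in sham to 22.9 ± 13.9 in AVF (log2 fold change 3.81, adjusted p = 0.000426). Fscn1, an actin-bundling protein of filopodia, rose by 0.54 (adjusted p = 0.0164) and Unc5b, a netrin receptor of tip cells, by 0.89 (adjusted p = 0.0253). Angpt2, a ligand of the Tie2 receptor, fell, with a log2 fold change of -0.55 (adjusted p = 0.0205). Without AVF male 2 and AVF female 2, 2 rose and 1 fell.

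Of 15 genes of VEGF-C processing and lymphatic endothelium, 5 rose (33.3%) and 1 fell (6.67%), with a median of 0.30. Adamts3, the protease that activates the precursor of VEGF-C, rose from 2.57 ± 0.382 to 8.22 ± 4.48 normalized CPM (1.68, adjusted p = 0.00356). Pdpn, a membrane protein of lymphatic endothelium that fibroblasts also express, rose by 0.87 (adjusted p = 0.00639) and Foxc2, a factor of lymphatic valves, by 0.67 (adjusted p = 0.0103). Gata2, another factor of lymphatic valves that blood cells use as well, fell, with a log2 fold change of -0.65 (adjusted p = 0.00198). The 9 not called were Lyve1 (0.77), Ccbe1 (0.57), Mmrn1 (0.30), Prox1 (0.27), Ccl21a (0.21), Sox18 (0.13), Tbx1 (-0.12), Fgl2 (-0.17) and Reln (-0.18). Without AVF male 2 and AVF female 2, 4 rose and 1 fell.

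Of 26 genes of the HIF pathway and hypoxia-induced genes, 24 were tested, 4 rose and 4 fell (16.7% each), with a median of -0.15. Hif1a, the oxygen-sensitive subunit, was 118 ± 8.86 normalized CPM in sham and 180 ± 22.3 in AVF (0.61, adjusted p = 0.00129), and its partner Arnt rose by 0.22 (adjusted p = 0.0437), as did P4ha2, a collagen prolyl hydroxylase, by 0.47 (adjusted p = 0.0253). Egln1, the enzyme that marks HIF for degradation and is itself induced by it, fell, with a log2 fold change of -0.55 (adjusted p = 0.0187). Pgk1 (-0.53, adjusted p = 0.0268) and Pfkfb3 (-1.03, adjusted p = 0.0379), glycolytic genes, fell as well. Without AVF male 2 and AVF female 2 the list had 2 that rose and 1 that fell.

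Of 12 class 3 semaphorins and plexins, the neuropilin ligands and their receptors, 1 rose (8.33%) and 2 fell (16.7%), with a median of 0.05. Sema3d rose from 57.6 ± 7.96 to 106 ± 28.3 normalized CPM (0.88, adjusted p = 0.00631). Sema3g (-0.61, adjusted p = 0.0273) and Sema3e (-0.69, adjusted p = 0.0283) fell. Neither call held without AVF male 2 and AVF female 2, in the fit that called 7.92% of all genes.

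**Figure D5:**
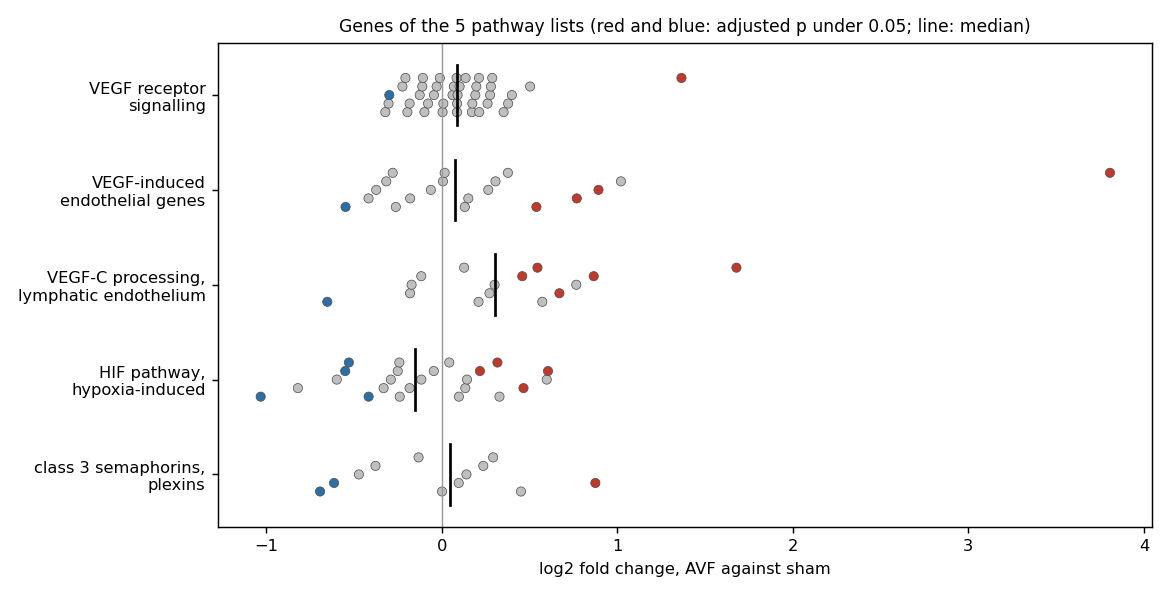
Log2 fold change of AVF against sham for each gene tested in the 5 pathway lists, red and blue where the adjusted p was under 0.05, with a line at the median of each list. Esm1 at 3.81 lies far from the rest, and the medians lie between -0.15 and 0.30.

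The genes whose log2 normalized CPM were most like those of a member over the 12 libraries, among 14500 named genes, were described by Pearson's r, which includes the difference between the operations. As the highest of 14500 values over 12 libraries, these r are high in part by selection. The level that unrelated genes would reach was not computed, so they are a description only. Vegfa was most like Mrpl10, a mitochondrial ribosomal protein (r = 0.977), Mcat, of mitochondrial fatty acid synthesis (r = 0.966), and Ddo (r = 0.964). Vegfb was most like Coq10a, a coenzyme Q binding protein (r = 0.974), Pde4a (r = 0.963) and Ddo again (r = 0.96). Vegfd was most like Vangl1, of planar cell polarity (r = 0.963), Spry1, an inhibitor of receptor tyrosine kinase signalling (r = 0.956), and Msrb3 (r = 0.954). Kdr was most like Tial1 (r = 0.949), Podxl, a sialomucin of endothelium (r = 0.941), and B3gnt3 (r = 0.925). Spearman's rho of these 3 was lower, at 0.748, 0.664 and 0.79, and Kdr in AVF female 3 lay far below every other library. Flt1 was most like Rflnb (r = 0.934), Wdr76 (r = 0.899) and Ets1, an endothelial transcription factor (r = 0.898).

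Pgf was most like Otulinl (r = 0.947), Ifngr2, a chain of the interferon gamma receptor (r = 0.933), and Cdca5, of sister chromatid cohesion (r = 0.925). Flt4 was most like Slc45a3 (r = 0.933), Nupr1 (r = 0.919) and Pgm3 (r = 0.909), and Vegfc was most like Vsig10 (r = 0.913), Rnase4 (r = 0.895) and Slc17a5 (r = 0.891). Nrp1 was most like Pibf1 (r = 0.93), Zeb2, a transcription factor (r = 0.913), and Ckap5, of microtubules (r = 0.908). Nrp2 was most like Cd200, a membrane protein of endothelium and neurons (r = 0.941), Dgka (r = 0.939) and Sugt1 (r = 0.919). No gene was among the 3 most like both Nrp1 and Nrp2 or both Flt1 and Kdr, and Vegfa and Vegfb shared 1, Ddo.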

How the data were processed

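Poly-A RNA-seq of 12 IVC was analysed from 1 table of the whole series. The authors removed poly-A/T tails and adapters (PRINSEQ, Trimmomatic 0.39), aligned the reads to GRCm39 with STAR 2.7.7a and the Ensembl annotation, and counted with RSEM 1.3.3 (reverse strand). The values deposited are expected counts, not normalized. Genes were named from GENCODE M39 on the same build, where 665 of 55414 identifiers had no name. Groups came from the sample labels.

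Expected counts were rounded, filtered as in the study (for the operations, 2 or more samples above 1 CPM, and between the sexes over 12 counts in total), scaled with TMM and tested in edgeR 4.0.16 (R 4.3.3) by the quasi-likelihood test with Benjamini-Hochberg adjustment over all genes tested. Called means an adjusted p under 0.05. The study used the exact test of edgeR between the operations, and the TCC and baySeq packages for its subgroups, the sexes among them. Ratios used log2 normalized CPM with a prior count of 1. The pipeline was tested on simulated data. Within groups, the chi-square per degree of freedom between libraries was 36.8 to 637, so the mice differed by more than counting error, and floors cover counting error only. Alternatives were DESeq2 1.42.0, other size factors, filters and covariates, unrounded counts, left-out libraries and a replicate block. The members and lists were chosen with earlier results of these data known. Named are the 10 members, of each list the called genes with the 3 lowest adjusted p per direction, and the 3 genes most like each member, leaving out symbols that begin with Gm and a digit or end in Rik. Genes not called are also named for the fibroblast, kidney tubule, brown fat and lymphatic lists. The correlations with the brown fat markers within a group and the promoter windows were added after the data were seen.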

Additional observations from a re-analysis of the deposited data

Results flagged for a closer look

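Over 40 sets of 6 libraries, 5 had 1 library far from the other 5 by Dixon's test, and chance gives about 1 in 20. Of these, 3 were AVF female 3, and all 3 hold its Kdr value, so the sets are not independent. Kdr was 81.5 normalized CPM there and 147 in the next AVF. The log2 ratio of Flt4 to Kdr was -0.929 and -1.82 in the next, and that of Kdr to the endothelial markers 0.157 and 0.788 in the next. Nrp2 was 142 normalized CPM in sham female 2, and 190 in the next sham library. The log2 ratio of Vegfa to Vegfc was 3.52 in AVF male 1 and 2.52 in the next AVF. No explanation of these values was tested.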

How the results depend on the processing

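The counts of members called, 3 that rose and 1 that fell, held with size factors of relative log expression, both other filters, unrounded counts, a robust fit, sex or endothelial markers as a covariate and without ribosomal RNA genes. With the exact test and with DESeq2, 2 fell, Vegfa being added, and with the exact test 2 in place of 3 rose, Flt4 being lost (adjusted p = 0.0584). With the brown fat markers as a covariate 0 rose, 0 fell and 0 were DEG, and Kdr (0.195) and Nrp1 (-0.0519) changed sign. The cause was not tested, except that the marker level differs between the groups.

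Mice of the same sex and replicate number were treated as unpaired, since the labels tie the number to no shared litter or day. In the data, 3 of 6 pairs had a correlation of deviations over 0.1 (-0.144 to 0.175, mean 0.0486, against -0.0231 for other numbers). Further, 3 of 6 libraries correlated best with their own number. With so few pairs these values do not settle whether the mice were paired. With the replicate block 12.4% of genes were called, the same 3 members rose and 1 fell, and 1 was a DEG, Pgf (1.20), since Vegfd at 0.98 was under the 2-fold limit. No ratio passed with the block (0 of 10), where the adjusted exact permutation p were 0.0625 and more. With 6 pairs the smallest two-sided p is 0.0312, so that at least 7 of the 10 ratios would have to reach it for any to pass, and this loss says nothing about the stability of the ratios. The block changed the sign of the interaction of Nrp2 (0.0105).

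Without AVF male 2 and AVF female 2, 2 members rose, Flt4 being lost, and 1 fell, 9 genes of the 5 lists rose and 3 fell, and 3 ratios passed. The fit without them called 7.92% of all genes, beside 13.8% with all 12 libraries. Vegfb to Vegfa became -0.0511 and the interaction of Vegfd 0.032. Leaving out 1 library gave 3 members that rose in every case, 0 to 2 that fell, 1 to 2 DEG that rose, 9 to 19 list genes that rose and 3 to 9 that fell, and 3 to 6 ratios. No member fell without AVF male 3, AVF female 3, sham male 1, sham female 1 or sham female 3, and 2 fell without AVF male 1. The DEG count was 1 without AVF male 3, AVF female 3, sham male 1 or sham female 3. Of the list genes, 9 rose without sham male 1, 3 fell without AVF male 2, and 4 fell without AVF male 3, AVF female 3 or sham male 1. The ratios were 3 without AVF male 2, AVF female 2, AVF female 3 or sham female 1.

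Between the sexes no member was called under any alternative, and small values changed sign. Flt4 in AVF was 0.00473 with DESeq2, 0.00112 with size factors of relative log expression and 0.0029 with the CPM filter, and the interaction of Nrp2 was 0.0312, 0.0317 and 0.037. With 1 library left out, the values spanned zero in AVF for Vegfc (-0.178 to 0.273), Flt1 (-0.116 to 0.132), Kdr (-0.348 to 0.136), Flt4 (-0.0793 to 0.0918) and Nrp1 (-0.16 to 0.0504), in sham for Flt1 (-0.0796 to 0.17) and Kdr (-0.0773 to 0.198), and in the interaction for Vegfd (-0.651 to 0.18), Flt1 (-0.222 to 0.0573), Kdr (-0.472 to 0.0271) and Nrp2 (-0.153 to 0.108). Pgf, with 28 to 174 counts per library, is the member most limited by depth.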
